A study of Mus musculus with 6 samples.

Results

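The genes described here are 35 genes of glucose breakdown and of the response to low oxygen, chosen by name: carriers of glucose and lactate, the glycolytic enzymes, the enzymes that decide the fate of pyruvate, the oxygen sensors and other known targets of the hypoxia factor HIF-1. Members were all probe sets whose platform annotation names 1 gene, with that gene on the list. This gave 74 of the 45037 probe sets, for 32 of the 35 genes. The probe sets that name Gapdh name several genes and were not used, and Eno1 and Gpi1 had no probe set in the annotation table. The signal of these 3 genes was therefore not analysed here. After leaving out dim probe sets (below), 68 member probe sets were tested, and each of the 32 genes had at least 1. Of several probe sets tested for a gene, the brightest on average stands for the gene.

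Total RNA of mouse embryonic stem cells (mESCs, pluripotent cells of the early embryo), strain 129SV/C57BL/6, was hybridised to Affymetrix mouse genome arrays. There were 3 arrays of wild type cells and 3 of Setd2 knockout cells, which the labels call biological repeats. All cells were grown on feeder cells without a specific treatment and depleted of feeders by settling on gelatin and 1 passage. The labels give neither the deleted part of Setd2 nor the number of clones, and a replicate number from 1 to 3 with no word on what a number shares. Values are log2 MAS5 signals, so a difference of 1 is a 2-fold change in signal, and levels of different genes cannot be compared. The targeted gene Setd2 read 10.31, 10.30 and 10.31 on the wild type arrays and 9.37, 9.50 and 9.60 on the knockout arrays (limma adjusted p = 0.0272). Since the deleted part is not given, whether this probe set lies in it is not known. The stem cell markers Pou5f1, Nanog, Sox2, Esrrb, Tdgf1, Dppa5a and Utf1 all read at least 10.45 on every array. Such a level alone does not establish the cell type, which is taken from the labels.

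Glycolysis splits glucose into pyruvate. Pyruvate is then reduced to lactate or passed to the mitochondria. Most steps are run by several paralogous enzymes, each from its own gene. When oxygen is low, prolyl hydroxylases stop marking the HIF-1 alpha protein for destruction, and HIF-1 binds short promoter motifs and raises transporters, glycolytic enzymes and its own hydroxylases. Mouse embryonic stem cells are known for active glycolysis.

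Between the genotypes, the members with the largest differences were Ldhb, the lactate dehydrogenase subunit of oxidative tissues, 1.94-fold higher in knockout cells, and Bnip3, a mitophagy receptor gene induced by hypoxia, 1.92-fold higher. In the fit without a block (limma, Benjamini-Hochberg over all 27022 tested probe sets, threshold 0.05) 0 of the 32 members passed in either direction, where 0.256% of the 12915 tested genes were higher and 0.48% lower. Of the 32 members, 6 had an unadjusted limma p under 0.05, against 1736 of the 12915 tested genes. With the replicate number as a block, 4 members rose (Ldhb, Bnip3, Aldoc and Tpi1; 4.13% of all tested genes) and 1 fell (Ankrd37; 5.75%). A number 1 term in place of the block gave 4 (4.35%) and 1 (6.09%). The member median was 0.015, against -0.0006 over all tested genes. The 3 knockout arrays all lay above the 3 wild type arrays for 6 members (9.26% of all tested genes) and all below for 0 (9.97%).

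More members passed by array number than by genotype, and the same held for all tested genes. Of the 12915, 1976 were higher and 1483 lower by number, against 33 and 62 by genotype without the block. With the block, 533 were higher and 742 lower by genotype. Of the 32 members, 10 were higher on the arrays numbered 1 than on those numbered 2 and 3 (limma with genotype as a term; 15.3% of all tested genes) and 2 were lower (11.5%). This split of the arrays was known from earlier results of these data, so its p-values are not those of a comparison chosen blind. The 10 were Slc2a3, Hk1, Pfkm, Pfkp, Aldoc, Eno2, Ldhb, Egln3, Ankrd37 and Mxi1, with differences from 0.35 for Slc2a3 to 1.12 for Eno2. The 2 lower members were Tpi1 and Pkm. The median over the 32 members was 0.033, against 0.048 over all tested genes. For 12 members array number 1 was the highest in both genotypes (32.7% of all tested genes), and for 9 it was the lowest (24.4%).

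The arrays numbered 1 also read lower for feeder fibroblast genes. Of 19 tested fibroblast markers 13 were lower there (11.5% of all tested genes) and 0 were higher (15.3%). The 19 averaged 7.84 (wild type) and 7.70 (knockout) there against 8.46 to 8.94 on the other 4. None of the 19 was at 0 on any array, with 4.93 the lowest value. All had passed the filter on mean signal and detection calls were not used, so this does not show detection. In bulk RNA, fewer cells of a type and less RNA per cell cannot be told apart. Among the 7 stem cell markers Nanog, Sox2 and Esrrb were higher and Pou5f1 and Utf1 lower on the arrays numbered 1. The part of these shifts in the differences of the members was not tested. By genotype, 0 fibroblast markers passed, and with the block 2 were higher in knockout cells (4.13% of all tested genes). Markers of primitive endoderm, a lineage that can arise in such cultures, were mostly lower in knockout cells. Of 6 tested, 5 had all knockout arrays below all wild type arrays (9.97% of all tested genes), and 1 had a difference above 0. In the fit without a block 1 fell (Gata6, by 1.63, against 0.48% of all tested genes). With the block 4 fell (Gata6, Dab2, Sox7 and Sox17, against 5.75%), while 0 passed by number. The mean level of the 6 was 6.98 to 7.23 on the wild type arrays and 5.83 to 6.20 on the knockout arrays. None was at 0 on any array, which does not show detection here either. Their part in the genotype differences of the members was not tested.

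**Figure D1:**
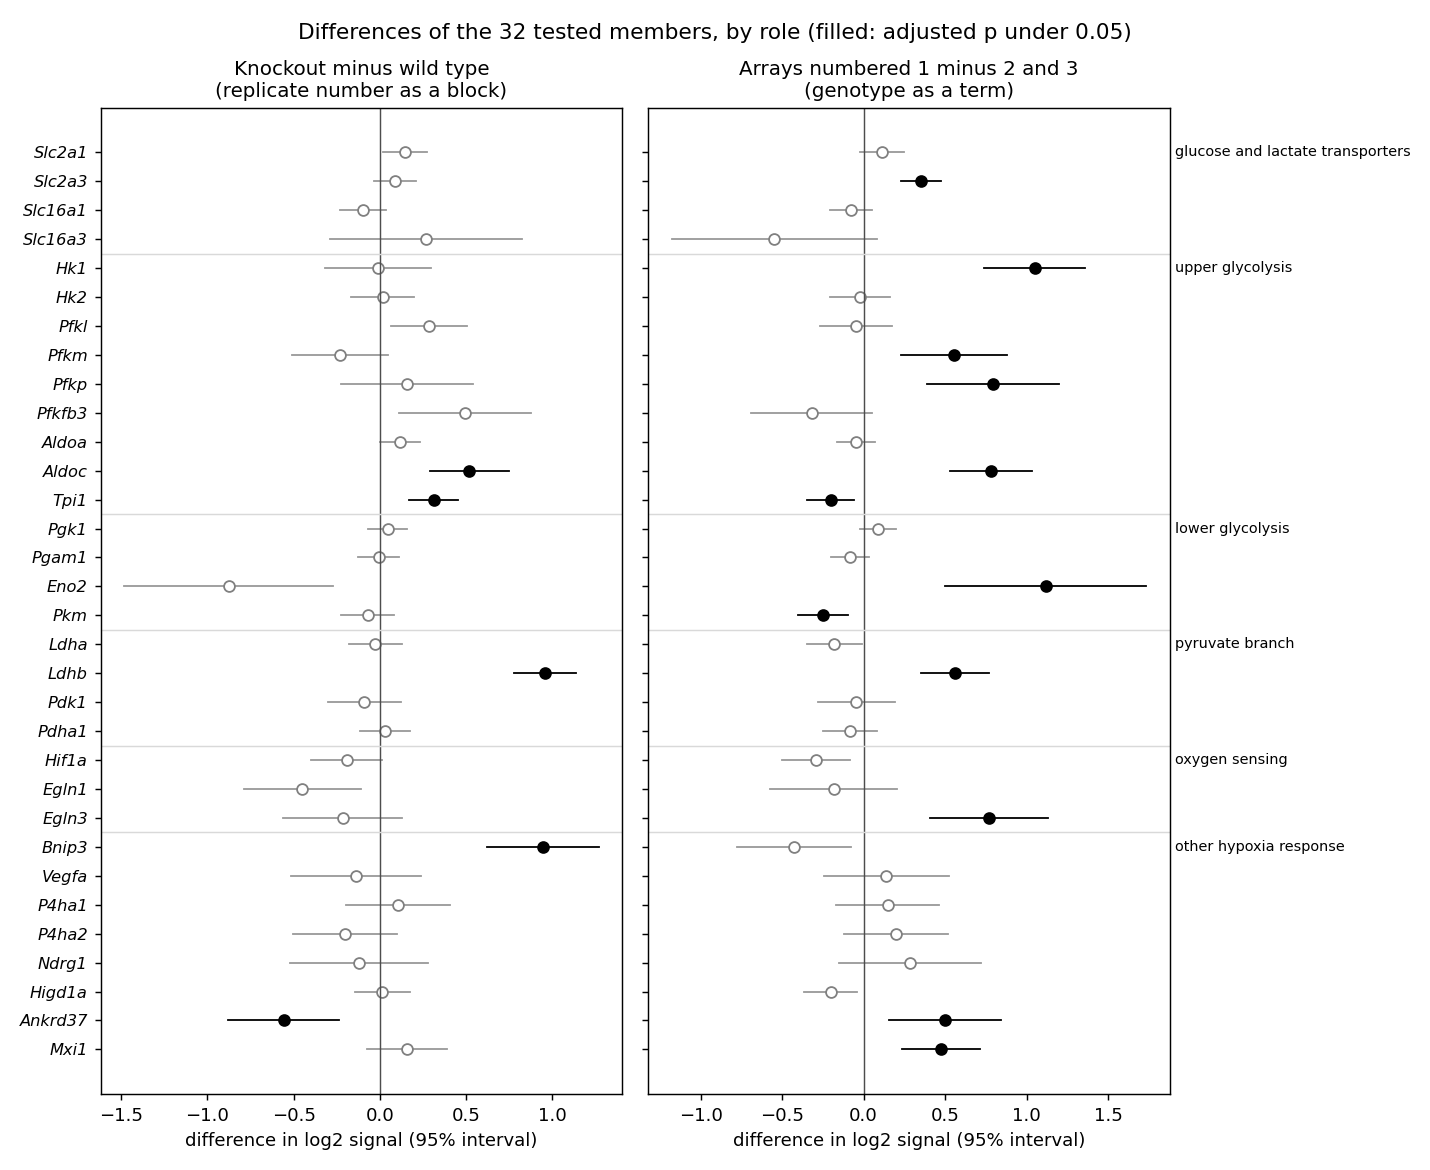
Differences in log2 signal of the 32 tested members with 95% intervals, grouped by role. Left, knockout minus wild type with the replicate number as a block (3 arrays per genotype); right, the 2 arrays numbered 1 minus the 4 numbered 2 and 3 with genotype as a term. Filled points passed an adjusted p of 0.05: 5 members on the left, led by Ldhb at 0.96, and 12 on the right, led by Eno2 at 1.12.

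HIF-1 binds a core motif of 5 letters, and the promoters of 5 members that passed a threshold are printed to show where these letters lie. The window is the 250 bases before the start of a RefSeq transcript (GRCm38.p6), 5′ to 3′ on the strand of the gene. Capitals mark ACGTG and GCGTG on either strand (CACGT and CACGC in the printed strand), and CACGTG counts on both strands. The windows are Bnip3 at chr7:138909507-138909756 on the minus strand, Ldhb at chr6:142507958-142508207 on the minus strand, Pfkp at chr13:6648772-6649021 on the minus strand, Egln3 at chr12:54203875-54204124 on the minus strand, and Ankrd37 at chr8:45999851-46000100 on the minus strand.
Bnip3: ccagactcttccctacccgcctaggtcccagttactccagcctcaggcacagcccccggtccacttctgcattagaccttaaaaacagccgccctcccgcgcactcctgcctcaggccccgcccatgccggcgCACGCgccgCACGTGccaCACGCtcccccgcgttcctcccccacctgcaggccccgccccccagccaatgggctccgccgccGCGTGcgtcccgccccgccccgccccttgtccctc
Ldhb: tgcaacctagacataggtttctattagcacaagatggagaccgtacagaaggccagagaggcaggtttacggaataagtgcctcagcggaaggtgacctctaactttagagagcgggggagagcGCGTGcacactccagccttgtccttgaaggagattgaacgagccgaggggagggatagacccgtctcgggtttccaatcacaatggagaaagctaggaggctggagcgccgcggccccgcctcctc
Pfkp: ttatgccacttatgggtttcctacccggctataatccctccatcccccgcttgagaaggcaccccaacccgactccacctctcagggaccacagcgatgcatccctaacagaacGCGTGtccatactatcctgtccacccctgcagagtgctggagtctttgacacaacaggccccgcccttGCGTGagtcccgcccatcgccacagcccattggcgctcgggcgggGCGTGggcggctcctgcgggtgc
Egln3: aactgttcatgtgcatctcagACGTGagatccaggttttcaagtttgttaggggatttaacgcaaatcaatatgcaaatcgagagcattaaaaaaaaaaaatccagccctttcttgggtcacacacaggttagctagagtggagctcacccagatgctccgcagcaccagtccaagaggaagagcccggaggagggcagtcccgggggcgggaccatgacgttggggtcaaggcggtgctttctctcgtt
Ankrd37: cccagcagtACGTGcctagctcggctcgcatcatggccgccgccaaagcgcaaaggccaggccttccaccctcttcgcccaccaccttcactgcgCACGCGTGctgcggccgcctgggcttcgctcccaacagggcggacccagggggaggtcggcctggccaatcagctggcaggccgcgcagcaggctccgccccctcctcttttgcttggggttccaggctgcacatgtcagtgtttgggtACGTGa

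Bnip3 held 5 matches in this window, Ankrd37 4, Pfkp 3, and Ldhb and Egln3 1 each. RefSeq promoters were found for 33 of the 35 genes, 49 windows in all, some of which overlap; Slc2a3 and Ndrg1 had none. A match lay in 39 of the 49 windows (79.6%). The share was 38.6% of all 32851 promoters and 54.8% of the 13315 promoters of tested genes. The list was chosen by name and holds known HIF-1 targets, so a higher share was to be foreseen and is no result of these data. The 49 also include windows of Gapdh, Eno1 and Gpi1, which had no tested probe set. Tpi1 and Eno2, which also passed a threshold, had no match in this window. A match is a run of letters and says nothing of binding in these cells.

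Among the carriers, the neuronal-type glucose carrier gene Slc2a3 (Glut3) was higher on the arrays numbered 1, and the other 3 did not pass. Slc2a3 (1437052_s_at) read 14.12, 13.87 and 13.79 on wild type arrays 1, 2 and 3 and 14.29, 13.90 and 13.85 on knockout arrays 1, 2 and 3. Array 1 was the highest of its genotype in each case. The difference was 0.35 ± 0.06 (SE), 1.28-fold (limma adjusted p = 0.00217). Its other 3 probe sets, all dimmer, gave 0.59 to 1.56 and passed as well. The dimmer 1421924_at read 9.27 on knockout array 1, while all other arrays read between 7.14 and 7.90. By genotype Slc2a3 differed by 0.09 (95% interval -0.21 to 0.38), and 1 of its dimmer probe sets, 1455898_x_at, rose by 0.30 with the replicate block (limma adjusted p = 0.0112; 0.654 without it).

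Slc2a1 (Glut1), the widely expressed glucose carrier, differed by 0.11 (-0.02 to 0.25) by number and by 0.14 (-0.03 to 0.31) by genotype. The lactate and pyruvate carriers were Slc16a1, at -0.08 (-0.21 to 0.05) by number, and Slc16a3, at -0.55 (-1.18 to 0.08). By genotype they differed by -0.10 (-0.27 to 0.06) and 0.27 (-0.49 to 1.02). None of these 3 passed in either comparison. The interval of the dim Slc16a3 leaves room for more than a 2-fold change.

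In upper glycolysis, 4 of 9 tested members were higher on the arrays numbered 1 (15.3% of all tested genes) and 1 was lower (11.5%). Hexokinase traps glucose in the cell. Hk1 (1437974_a_at) read 9.75, 8.47 and 8.81 on wild type arrays 1 to 3 and 9.66, 8.83 and 8.51 on knockout arrays 1 to 3. The 2 arrays numbered 1 stood above all 4 others. The difference by number was 1.05 ± 0.14 (SE), 2.07-fold (limma adjusted p = 0.000943), with 1.11 in wild type and 0.99 in knockout cells. By genotype Hk1 differed by -0.01 (-0.88 to 0.86). A dim second Hk1 probe set, 1420901_a_at, went the other way by number, at -0.53 (limma adjusted p = 0.419). Hk2, the hexokinase induced by hypoxia, differed by -0.02 (-0.21 to 0.16) by number and 0.02 (-0.20 to 0.23) by genotype.

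Phosphofructokinase commits glucose to glycolysis and is built from liver, muscle and platelet subunits. The platelet subunit gene Pfkp read 11.86, 10.45 and 10.61 on wild type arrays 1 to 3, and 11.31, 11.07 and 11.02 on knockout arrays 1 to 3. Wild type array 1 was the highest, and the difference by number was 0.79 ± 0.18 (SE; limma adjusted p = 0.0124), 1.32 in wild type but 0.27 in knockout cells. Leaving out wild type replicate 1 lowered it to 0.27, which did not pass (limma adjusted p = 0.127). Its dimmer probe sets gave 0.58 and 0.39 and did not pass (limma adjusted p = 0.0849 and 0.238).

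The muscle subunit gene Pfkm read 9.75, 9.36 and 9.56 on wild type arrays 1 to 3 and 9.86, 8.88 and 9.22 on knockout arrays 1 to 3. It was higher by 0.55 ± 0.15 (SE) on the arrays numbered 1 (limma adjusted p = 0.0228). It did not pass once knockout replicate 1 (0.30; adjusted p = 0.338) or wild type replicate 2 (adjusted p = 0.0545) was left out. The liver subunit gene Pfkl differed by -0.05 (-0.27 to 0.18) by number. Of its other probe sets, 1453541_at was lower on the arrays numbered 1 by 0.83 on the log2 scale (limma adjusted p = 0.0452) and 1450269_a_at differed by 0.23.

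By genotype, the knockout arrays of Pfkl, at 10.16, 10.32 and 10.40, all lay above the wild type arrays, at 10.08, 10.04 and 9.91. The difference was 0.28 ± 0.12 (SE; limma adjusted p = 0.418; blocked by number, 0.120). All 3 Pfkl probe sets gave a difference above 0, from 0.28 to 0.68. Without the arrays numbered 1, Pfkl and Pfkp passed as higher in knockout cells, by 0.38 and 0.51 (limma adjusted p = 0.0456 and 0.00882). Pfkp gave -0.55 within number 1 and 0.51 within numbers 2 and 3. Pfkm gave 0.11 and -0.40. Pfkfb3, whose product makes the activator of phosphofructokinase, read 6.87, 7.17 and 7.26 in wild type and 7.40, 7.75 and 7.63 in knockout cells. Its groups did not overlap, and the difference was 0.49 ± 0.20 (SE; limma adjusted p = 0.379; blocked by number, 0.119). A dimmer second Pfkfb3 probe set, 1456676_a_at, differed by 0.10 (-0.61 to 0.81), with overlapping groups.

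Aldolase cleaves the phosphorylated sugar. The brain-type Aldoc read 9.51, 8.59 and 8.82 on wild type arrays 1 to 3 and 10.00, 9.17 and 9.30 on knockout arrays 1 to 3. Each knockout array exceeded the wild type array of its number, and array 1 was the highest in each genotype. It was higher by 0.78 ± 0.11 (SE) on the arrays numbered 1, 1.72-fold (limma adjusted p = 0.00136), by 0.80 in wild type and 0.76 in knockout cells. By genotype it rose by 0.52 ± 0.10 (SE) with the replicate block (limma adjusted p = 0.0129), and without the block it did not pass (0.556). The bright Aldoa differed by -0.05 (-0.16 to 0.07) by number and 0.12 (-0.02 to 0.25) by genotype, and its other 4 probe sets gave genotype differences from 0.08 to 0.21 and number differences from -0.05 to 0.11.

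Tpi1, the triose phosphate isomerase gene, read 13.31, 13.45 and 13.37 in wild type and 13.49, 13.76 and 13.82 in knockout cells. All knockout arrays lay above all wild type arrays, number 1 by the narrowest margin. The rise of 0.31 ± 0.06 (SE), 1.24-fold, passed only when blocked by number (limma adjusted p = 0.0144, against 0.243) or when knockout replicate 1 was left out (0.0339), among these 3 fits. All 3 Tpi1 probe sets passed with the block, at 0.31, 0.37 and 0.46. By number Tpi1 was lower by 0.20 on the log2 scale (limma adjusted p = 0.0475), a call that was lost without any single array but wild type replicate 1 and under both other scalings.

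In lower glycolysis, 1 of 4 tested members was higher on the arrays numbered 1 (15.3% of all tested genes) and 1 was lower (11.5%). Eno2, the neuronal enolase gene, read 7.61, 6.72 and 7.23 on wild type arrays 1 to 3 and 7.38, 5.91 and 5.64 on knockout arrays 1 to 3. Array 1 led in each genotype, and knockout arrays 2 and 3 were the lowest. The difference by number was 1.12 ± 0.28 (SE), 2.17-fold (limma adjusted p = 0.0177). It was lost without knockout replicate 1 (0.63; adjusted p = 0.310). By genotype Eno2 differed by -0.88 (-1.92 to 0.17; limma adjusted p = 0.522; blocked by number, 0.0820), by -0.23 within number 1 and -1.20 within numbers 2 and 3. Without the arrays numbered 1 it fell by 1.20 (limma adjusted p = 0.0441).

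Pkm, the pyruvate kinase gene, read 13.27, 13.47 and 13.35 on wild type arrays 1 to 3 and 13.05, 13.37 and 13.45 on knockout arrays 1 to 3. It was lower by 0.25 on the log2 scale on the arrays numbered 1 (SE 0.07; limma adjusted p = 0.0289). Leaving out wild type replicate 2, knockout replicate 1 or knockout replicate 3 ended the call (adjusted p = 0.0900, 0.348 and 0.0703). Pgk1, which makes the first ATP of glycolysis, differed by 0.09 (-0.02 to 0.20) by number and 0.04 (-0.09 to 0.18) by genotype. Its dimmer probe set 1438640_x_at rose by 0.23 by genotype. That passed with a number 1 term (limma adjusted p = 0.0422) but not with the block (0.0518). The dimmest, 1439435_x_at, differed by -0.04 by genotype. Pgam1, the phosphoglycerate mutase gene, differed by -0.08 (-0.20 to 0.03) by number and -0.01 (-0.15 to 0.13) by genotype.

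At the pyruvate branch, Ldhb passed by number, and by genotype with the block, and the other 3 members passed in neither at their brightest probe set. Ldhb (1455235_x_at) read 11.24, 10.74 and 10.92 on wild type arrays 1 to 3 and 12.39, 11.61 and 11.78 on knockout arrays 1 to 3. All knockout arrays lay above all wild type arrays, and array 1 was the highest of each genotype. The genotype difference was 0.96 ± 0.21 (SE) without the block (limma adjusted p = 0.110) and 0.96 ± 0.08 with it (0.000109). Knockout exceeded wild type by 1.15 on the arrays numbered 1 and by 0.86 on the others. The other 3 probe sets rose with the block too, by 0.81, 0.86 and 0.93 (limma adjusted p = 0.000168, 0.000123 and 9.28e-05). By number Ldhb was higher by 0.56 ± 0.09 (SE), 1.47-fold (limma adjusted p = 0.00279), a call lost without knockout replicate 1 (adjusted p = 0.0597).

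Ldha, the subunit that favours lactate formation, read 14.30, 14.31 and 14.34 in wild type and 14.07, 14.31 and 14.49 in knockout cells, and the groups overlapped. It differed by -0.03 (-0.25 to 0.20) by genotype and by -0.18 (-0.35 to -0.01) by number (limma adjusted p = 0.121). Whether Ldhb and Ldha differed from each other in their response was not tested. Pdk1, the kinase that shuts pyruvate dehydrogenase in hypoxia, differed by -0.09 (-0.36 to 0.18) by genotype and -0.05 (-0.28 to 0.19) by number. Its second brightest probe set, 1423748_at, fell by 0.26 with the block (limma adjusted p = 0.0453). Pdha1, the subunit that Pdk1 phosphorylates, differed by 0.03 (-0.18 to 0.24) and -0.08 (-0.25 to 0.08).

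**Figure D2:**
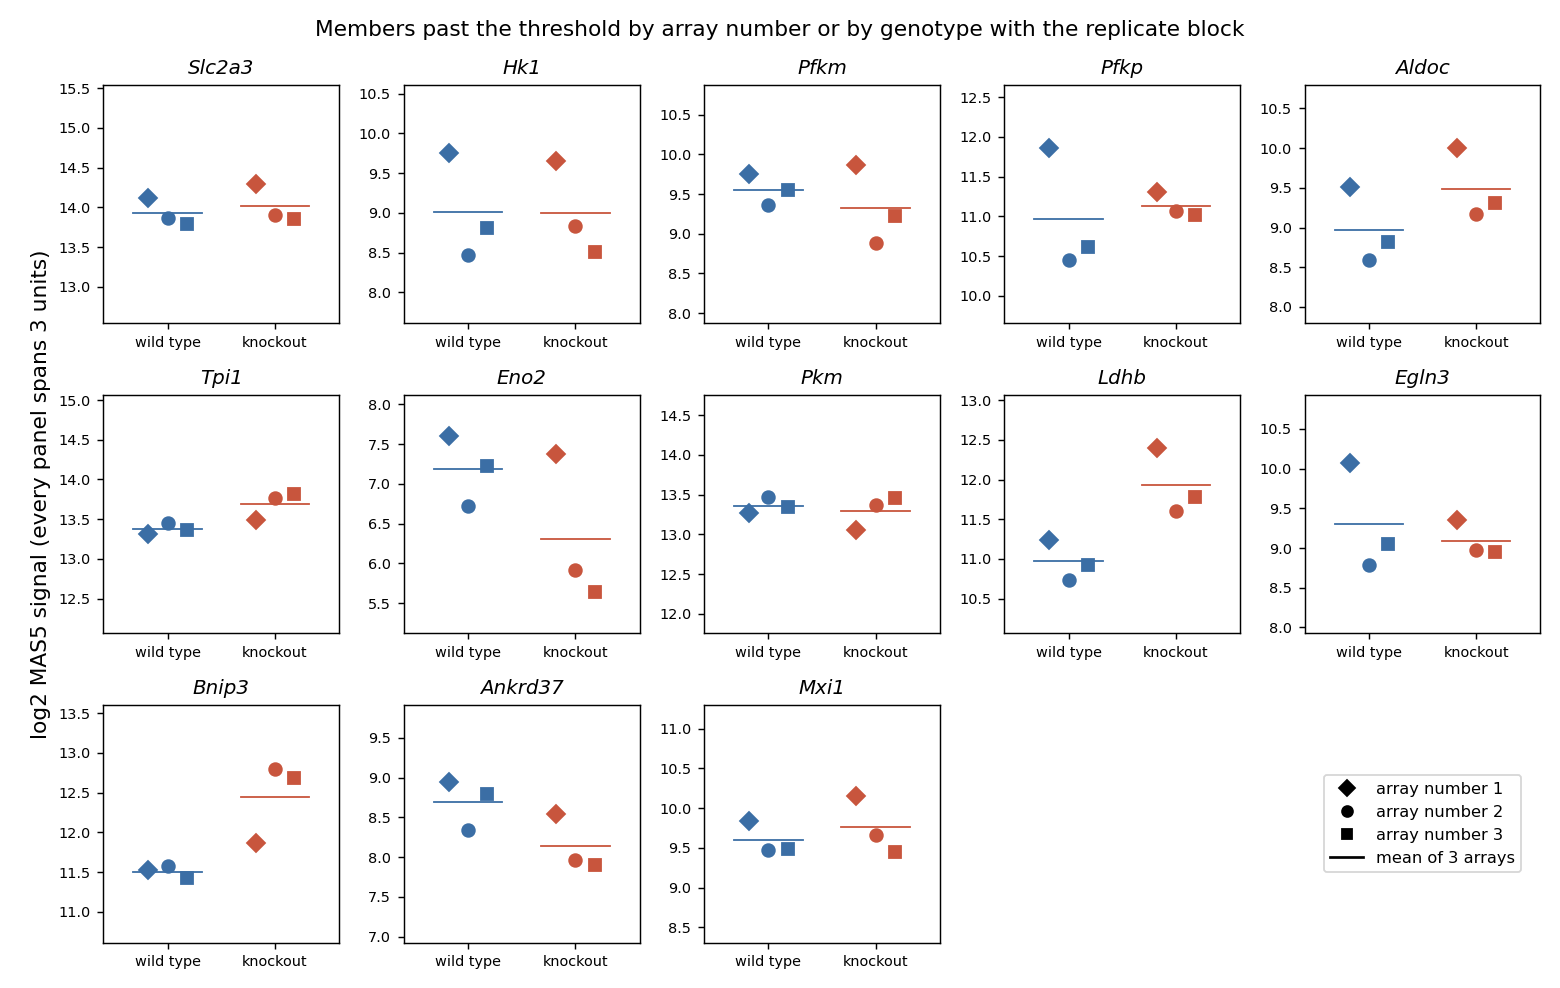
Log2 MAS5 signal on each array for the 13 members past the threshold by array number or by genotype with the replicate block; symbols give the array number, lines the mean of 3 arrays, and every panel spans 3 units. Diamonds (number 1) top both genotypes for Hk1, Aldoc and Eno2. For Ldhb and Bnip3 all knockout points lie above all wild type points.

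Among the oxygen sensors, the prolyl hydroxylase gene Egln3 (PHD3), a HIF-1 target, was higher on the arrays numbered 1. It read 10.07, 8.79 and 9.05 on wild type arrays 1 to 3 and 9.35, 8.97 and 8.95 on knockout arrays 1 to 3. The difference was 0.77 ± 0.16 (SE), 1.70-fold (limma adjusted p = 0.00853), with 1.15 in wild type and 0.39 in knockout cells. Leaving out wild type replicate 1 lowered it to 0.39, which did not pass (limma adjusted p = 0.133). Its second probe set passed as well, at 1.14. By genotype Egln3 differed by -0.22 (-0.93 to 0.50).

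Egln1 (PHD2), the main hydroxylase in most cells, read 8.96, 8.90 and 8.80 in wild type and 8.12, 8.85 and 8.34 in knockout cells. It differed by -0.45 (-0.91 to 0.01; limma adjusted p = 0.443, and 0.110 with the block), and its second probe set by -0.57. Egln1 lies on chromosome 8, whose 709 tested genes had a median genotype difference of -0.34, against 0.01 on the other chromosomes but Y. Hif1a itself, the oxygen-controlled subunit of HIF-1, read 12.07, 12.16 and 12.11 in wild type and 11.57, 12.08 and 12.10 in knockout cells. Knockout array 1 stood below the other 5. Hif1a differed by -0.19 (-0.52 to 0.13) by genotype and -0.29 (-0.50 to -0.08) by number (limma adjusted p = 0.0523). It passed by number with median centring (adjusted p = 0.0324), a filter at the 60th percentile (0.0406) and a floor at log2 4 (0.0497). With quantile normalization it did not pass (0.0687). Its dimmer probe sets 1416035_at and 1448183_a_at differed by -0.09 and 0.49 by number and did not pass (limma adjusted p = 0.658 and 0.571). By genotype these 2 differed by -0.22 and 0.21. HIF-1 alpha is controlled mainly as a protein, which arrays do not measure.

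Of the 8 other hypoxia response genes, 1 rose (4.13% of all tested genes) and 1 fell (5.75%) by genotype with the block. On the arrays numbered 1, 2 of the 8 were higher (15.3%). Bnip3 read 11.52, 11.57 and 11.42 on the wild type arrays and 11.87, 12.79 and 12.69 on knockout arrays 1 to 3. All knockout arrays lay above all wild type arrays, with number 1 closest to them. The rise was 0.94 ± 0.15 (SE) with the block (limma adjusted p = 0.00347); without the block it did not pass (0.123). Leaving out knockout replicate 1 gave 1.24 (adjusted p = 0.000828). Knockout exceeded wild type by 0.34 on the arrays numbered 1 and by 1.24 on the others. By number Bnip3 differed by -0.43 (-0.78 to -0.08; limma adjusted p = 0.0820), and with median centring by -0.46 (0.0371), which passed.

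Ankrd37, a compact HIF-1 target gene, read 8.94, 8.34 and 8.79 on wild type arrays 1 to 3 and 8.55, 7.96 and 7.90 on knockout arrays 1 to 3. Array 1 led each genotype, and the genotypes overlapped. It fell by 0.56 with the replicate block (SE 0.15; limma adjusted p = 0.0421) but not without it (0.410). Ankrd37 lies on chromosome 8 too, so its genotype difference stands beside that chromosome's median of -0.34. By number it was higher by 0.50 ± 0.15 (SE; limma adjusted p = 0.0435). That call was lost under both other scalings and without any single array but wild type replicate 3. Mxi1, a Myc antagonist gene, read 9.84, 9.48 and 9.49 on wild type arrays 1 to 3 and 10.16, 9.67 and 9.45 on knockout arrays 1 to 3. It was higher by 0.48 ± 0.11 (SE) on the arrays numbered 1 (limma adjusted p = 0.0114; 0.163 without knockout replicate 1).

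The remaining 5 genes passed in neither comparison. They were the angiogenic factor gene Vegfa, the collagen prolyl hydroxylase subunits P4ha1 and P4ha2, the stress gene Ndrg1 and the mitochondrial gene Higd1a. By genotype they lay between -0.20 for P4ha2 and 0.11 for P4ha1. By number they lay between -0.20 for Higd1a (-0.36 to -0.04) and 0.28 for Ndrg1 (-0.15 to 0.72). Vegfa read 8.38, 7.95 and 8.21 in wild type and 8.03, 8.27 and 7.82 in knockout cells, with overlapping groups.

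Whether the genotype difference was the same on both kinds of array was tested as an interaction, and no member passed. In a limma fit with a genotype by number 1 term, 0 of the 68 member probe sets passed (6 of all tested probe sets did), 16 had an unadjusted p under 0.05 (23.5%, several from the same gene, against 9.22% of all tested probe sets), and the smallest member adjusted p was 0.0841. Bnip3 gave an interaction of -0.90 (adjusted p = 0.0926). Number 1 holds 1 array per genotype, so its own difference has no replicate. Without both arrays numbered 1, 6 members rose (Pfkl, Pfkp, Aldoc, Tpi1, Ldhb and Bnip3; 3.76% of all tested genes) and 1 fell (Eno2; 5.56%).

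**Figure D3:**
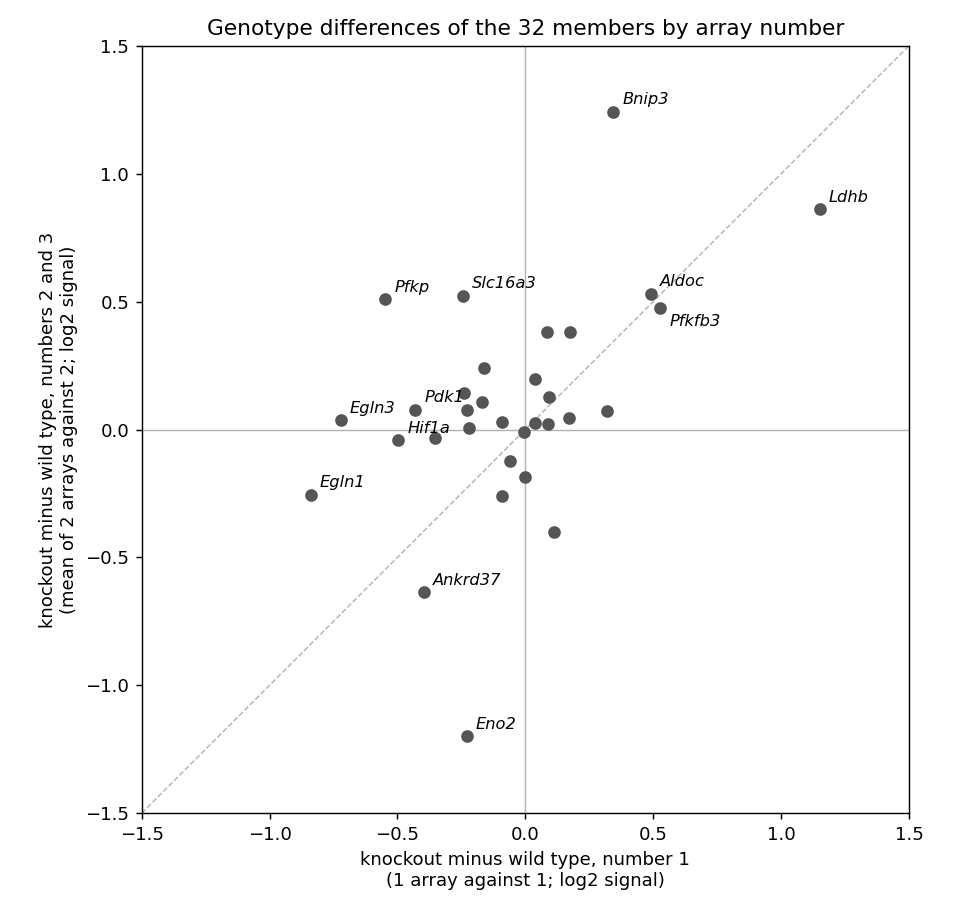
Knockout minus wild type differences in log2 signal of the 32 members, within number 1 (x axis, 1 array against 1) and within numbers 2 and 3 (y axis, means of 2 arrays against 2); the dashed line marks equality. Ldhb is high on both axes (1.15 and 0.86), Bnip3 mainly on the y axis (0.34 and 1.24), and Pfkp changes sign (-0.55 and 0.51).

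Over all tested genes, 15.3% were higher and 11.5% lower by number. By genotype 0.256% rose and 0.48% fell without the block, and 4.13% and 5.75% with it. These shares stand beside the counts of each list below. The regulators of HIF were followed as a list of 20 genes, of which 19 were tested. By genotype 0 passed without the block, and with it 1 rose (Arnt, the constant partner of HIF-1 alpha, by 0.35) and 3 fell. Those 3 were Epas1, which encodes HIF-2 alpha, by 0.74, Cited2, a competitor of HIF for its coactivators, by 0.64, and the ubiquitin ligase gene Siah1a by 0.55 (limma adjusted p = 0.00207, 0.00154 and 0.0120). Epas1 read 12.27, 12.11 and 12.34 in wild type and 11.18, 11.44 and 11.88 in knockout cells, with no overlap. Siah1a lies on chromosome 8. By number, Hif3a was higher by 0.74, and Crebbp, Siah2 and Egln2 were lower by 0.69, 0.66 and 0.35 on the log2 scale.

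Of 31 tested further genes of glycolysis and pyruvate use, 1 rose by genotype. Emb, which encodes embigin, a partner protein of the lactate carriers, went from 11.96, 12.01 and 11.97 to 12.40, 12.49 and 12.52, with no overlap. It rose by 0.49 ± 0.08 (SE), and passed without the block (limma adjusted p = 0.0372). With the block 2 of this list rose (Emb and Bsg, another such partner, by 0.37) and 3 fell. By number 5 were higher and 0 lower, led by Pdk4, a pyruvate dehydrogenase kinase gene, at 1.12, then Txnip, which restrains glucose uptake, at 0.78, Tigar at 0.76 and Mlxipl at 0.52 (limma adjusted p from 0.00156 to 0.0481).

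Of 44 tested further hypoxia target genes, 0 passed by genotype without the block, and with it 1 rose and 3 fell. By number 11 were higher (15.3% of all tested genes) and 9 lower (11.5%). The largest differences were Stc2 at -1.76, Ppp1r3c at 1.50, Anxa2 at -1.32 and Lox at -1.21 (limma adjusted p = 0.000914, 0.0381, 0.000653 and 0.000879). Stc2 encodes a secreted glycoprotein, Ppp1r3c a glycogen targeting subunit, Anxa2 a membrane-binding protein and Lox a collagen crosslinking enzyme. The fibroblast markers were lower on the same arrays, with a median difference of -1.16. The part of that shift in the differences of this list was not tested.

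Of 10 tested genes of the pentose phosphate pathway, Pgls, the phosphogluconolactonase gene, fell. It read 11.22, 11.38 and 11.39 in wild type and 10.60, 10.72 and 10.54 in knockout cells, a fall of 0.71 ± 0.11 (SE; limma adjusted p = 0.0304). Pgls lies on chromosome 8. With the block Tkt, the transketolase gene, fell as well, by 0.29, and by number Taldo1 was higher by 0.29. The calls of Emb and Pgls without the block were the only ones in the 6 lists described here, and none of these lists held a call once any single array but knockout replicate 1 was left out. Of 5 tested genes of gluconeogenesis, Fbp2 fell by 2.12 with the block (limma adjusted p = 0.0134; 0.256 without), and Pck2 was higher by number, at 0.50. Of 7 tested genes of the serine branch, Mthfd2 and Shmt2 fell by 0.49 and 0.31 with the block. By number Psph and Phgdh were higher, at 0.36 and 0.34, and Shmt2 was lower by 0.41.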

How the data were processed

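The deposited values were log2 signals of 6 arrays; per the submitters' processing notes the authors used MAS5, the Affymetrix summary of a probe set, with no version given in the sources used here. Raised to the power of 2, each array had a trimmed mean (2% off each end) between 497.0 and 497.3, so no further scaling was applied. Detection calls were not used here. Depth in reads does not apply to arrays, and their number limits the precision. Symbols came from the platform annotation: 34945 probe sets named 1 gene, 932 several and 9160 were unnamed here. A RefSeq table (GRCm38.p6) gave current symbols and chromosomes, and its promoter table the sequences.

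Probe sets with a mean below the 40th percentile (5.27) were left out. The rest were fitted with limma 3.58.1 in R 4.3.3 (lmFit, eBayes with an intensity trend, two-sided, Benjamini-Hochberg over 27022 probe sets, threshold 0.05 on the adjusted p). Genotype was fitted alone, with the replicate number as a block, and with a number 1 term; number 1 against 2 and 3 was fitted with genotype as a term. The fits were tested on simulated data. Errors are SE of the fitted difference, and intervals are 95%. P-values set a fitted difference against the spread between these arrays. The labels call the arrays biological repeats but do not say what a number shares, so part of this spread may be technical.

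Deviations from the genotype means correlated at r = 0.50, 0.23 and 0.24 between arrays sharing a number (over probe sets, not independent of each other), all above 0.1, so the blocked values are given where they change a call. Across numbers 2 and 3 the correlations were 0.17 and 0.23, also above 0.1, so this bound does not set number 2 apart from number 3. Across number 1 and the others they were -0.37 to -0.30. The deviations of a probe set sum to 0 within a genotype, so these correlations are tied to each other and are not separate observations.

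The members and lists (those of HIF regulators, glycolysis and pyruvate use, hypoxia targets, pentose phosphate, gluconeogenesis and the serine branch, and the markers of fibroblasts, stem cells and primitive endoderm) were chosen with earlier results of these data known. All members with a probe set are named, with up to 4 genes past the threshold from each other list. Alternatives were other filters, scalings, a floor at log2 4, no trend, other probe sets and leaving out arrays.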

Additional observations from a re-analysis of the deposited data

How the results depend on the processing

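By genotype, members higher and lower numbered 0 and 0 in the reported fit, 4 and 1 with the replicate block, 4 and 1 with a number 1 term, and 6 and 1 without both arrays numbered 1 (added once the data had been seen). Leaving out single arrays gave 0 to 2 higher and 0 lower, with Tpi1 and Bnip3 the 2 without knockout replicate 1. In the other pathway lists together 1 gene was higher and 1 lower; with the block 4 and 14, with a number 1 term 4 and 16, without both arrays numbered 1 5 and 11, without the intensity trend 0 and 0, and 0 higher without the filter or with median centring. Leaving out single arrays gave 0 to 1 higher and 0 to 4 lower. By number, members higher and lower numbered 10 and 2; without the genotype term 3 and 0, without the intensity trend 2 (Hk1 and Aldoc) and 0, and lower members numbered 0 without the filter, 1 with quantile normalization (Pkm), 3 with median centring (Bnip3, Hif1a and Pkm) and 3 with the 60th percentile filter or the floor (Hif1a, Pkm and Tpi1). Leaving out single arrays gave 6 to 10 higher and 0 to 6 lower, with 6 lower without wild type replicate 1. Slc2a3, Hk1 and Aldoc passed whichever single array was dropped. In the other lists 21 were higher and 13 lower by number, 8 and 6 without the genotype term, 8 and 7 without the trend, and 8 to 17 and 7 to 13 with single arrays left out. The member median by number ran from -0.049 to 0.141 with single arrays left out. The median by genotype ran from -0.031 to 0.068. The cause of these shifts was not tested. In the contrast in which it passed, none of the 13 members past a threshold changed sign at its brightest probe set under the alternatives run.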
